A study of Mus musculus with 14 samples.

Results

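The genes described here encode 10 enzymes that make, convert or break down oxidised lipid mediators: the epoxide hydrolases Ephx1 and Ephx2, the cytochrome P450 Cyp2e1, the lipoxygenases Alox5, Alox12 and Alox15, the cyclooxygenases Ptgs1 and Ptgs2, and the prostaglandin synthases Ptgds and Ptges. They were picked by gene symbol, with earlier results of these data known. Of the 10 genes, 9 had at least 1 probe set carrying their symbol, with 14 probe sets in all, among 18193 named genes of the array. Each gene was read from its probe set with the highest mean over all arrays, and any other probe sets served as a check. Ephx1, Ephx2, Cyp2e1, Alox5 and Alox15 had only 1 probe set each, so no such check could be made for them. Ptgs1 was not analysed here. Of the 9 genes, 8 passed the minimum mean signal of 389.7 needed for a test, and Alox15, with a mean of 296.7, did not.

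The tissue was subcutaneous white fat of male C57BL/6 mice aged 12 weeks, and its RNA was hybridised to Affymetrix arrays. The exercised group (7 arrays) came from mice kept in cages with a running wheel for 11 days. The sedentary group (7 arrays) came from control mice of the same strain, sex and age. The labels give no running distance, hour, batch or animal for an array, so p-values here reflect only how these arrays spread, which may be technical in part.

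Polyunsaturated fatty acids are cut from membrane phospholipids and then oxidised along separate routes. Cyclooxygenases lead to prostaglandins and thromboxane, lipoxygenases to leukotrienes and hydroxy fatty acids, and cytochrome P450 epoxygenases to epoxy fatty acids, which epoxide hydrolases open to diols. In adipose tissue these products act on fat cells, vessels and immune cells, and prostaglandins are known to affect lipolysis and the formation of beige fat cells.

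For the members Ephx1 and Ptgs2 and the other pathway genes Ptges2 and Ptgr2, windows from the RefSeq promoter table (build GRCm38.p6) are shown. Each runs from 250 bases before to 50 bases after the annotated gene start, 5′ to 3′ on the gene's strand. Capitals mark matches to 5 short motifs searched on both strands. These were CACGTG (the E-box bound by clock and MYC family factors), ACGTCA (the core of the cAMP response element), AGGTCA (the nuclear receptor half-site), CCAAT and TATAAA. The table matched 8 of the 10 members, all but Ephx2 and Alox15, and of those 8 only Ephx1 and Ptgs2 are printed.
Ephx1, chr1:181017520-181017819, minus strand: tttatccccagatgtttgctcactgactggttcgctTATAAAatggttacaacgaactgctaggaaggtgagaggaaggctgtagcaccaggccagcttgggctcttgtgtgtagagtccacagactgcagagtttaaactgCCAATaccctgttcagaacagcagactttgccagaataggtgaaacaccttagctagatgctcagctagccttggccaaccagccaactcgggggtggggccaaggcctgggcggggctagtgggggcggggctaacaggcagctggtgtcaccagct
Ptgs2, chr1:150099781-150100080, plus strand: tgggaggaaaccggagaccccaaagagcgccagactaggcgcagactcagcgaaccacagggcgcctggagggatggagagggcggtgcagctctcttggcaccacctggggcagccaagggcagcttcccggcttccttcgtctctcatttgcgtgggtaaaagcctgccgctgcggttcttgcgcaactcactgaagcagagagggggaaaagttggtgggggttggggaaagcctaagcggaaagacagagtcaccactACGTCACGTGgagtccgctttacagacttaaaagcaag
Ptges2, chr2:32395640-32395939, plus strand: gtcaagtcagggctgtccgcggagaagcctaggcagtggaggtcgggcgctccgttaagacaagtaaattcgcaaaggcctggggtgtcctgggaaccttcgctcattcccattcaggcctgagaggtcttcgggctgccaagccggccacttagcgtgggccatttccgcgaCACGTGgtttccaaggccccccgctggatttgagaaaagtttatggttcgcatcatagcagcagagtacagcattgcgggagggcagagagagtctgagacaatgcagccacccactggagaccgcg
Ptgr2, chr12:84285046-84285345, plus strand: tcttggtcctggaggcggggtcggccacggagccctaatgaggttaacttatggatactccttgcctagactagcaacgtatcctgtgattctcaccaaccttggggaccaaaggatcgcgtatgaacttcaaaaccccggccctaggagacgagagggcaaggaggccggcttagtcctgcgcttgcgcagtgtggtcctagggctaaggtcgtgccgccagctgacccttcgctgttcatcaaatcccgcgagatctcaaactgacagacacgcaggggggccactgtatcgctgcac
CACGTG was found in 7.15% of all 32851 windows of the table, ACGTCA in 7.513%, AGGTCA in 16.26%, CCAAT in 37.41% and TATAAA in 13.62%. In the Ptgs2 window ACGTCA and CACGTG share 2 bases and lie just after the annotated gene start. Where transcription starts in this tissue was not tested. Ptges2 held CACGTG before its start, Ephx1 held CCAAT and TATAAA, and the Ptgr2 window held none of the 5. A match describes these letters and does not show a factor bound there.

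Signals are MAS5 intensities, scaled to the same trimmed mean on every array, and array medians ran from 531.3 to 617.4. Markers of mature fat cells were high on every array: the summed signal of 10 mature adipocyte genes ran from 369387 to 462949 on exercised and from 272726 to 434497 on sedentary arrays. Muscle markers were higher on the exercised arrays: their sum (15 genes) had a median of 358464 and a range of 6323 to 692520 on exercised arrays, against a median of 12066.2 and a range of 4880.5 to 266237 on sedentary arrays. All 15 had positive differences (median log2 difference 2.93), 11 had an unadjusted p under 0.05 and 0 passed the adjusted threshold by limma. Lymphocyte markers (10 genes) had negative differences in 10 of 10, with a median of -0.65, and 0 passed by limma at an adjusted or an unadjusted p under 0.05. Their sum was 3716.2 on exercised array 5, 8946.7 on exercised array 7 and 4632.9 on sedentary array 7, against 33064.1 to 113489 on the other 11 arrays. Sedentary arrays 5 and 7 stood apart in further lists. On sedentary array 5 all 14 genes of an inflammatory list (11 cytokines and chemokines, and the intracellular regulators Nfkbia, Tnfaip3 and Socs3) and all 8 neutrophil markers exceeded every other array. The 11 cytokines and chemokines summed to 109001 there, against 4020.8 to 7359.3 on the other 13 arrays, and that array also had the highest lymphocyte sum and the lowest adipocyte sum. On sedentary array 7 all 8 mesothelial markers exceeded every other array, with a sum of 26426.1 against 1907.8 to 3496.6. That array also had the lowest brown and beige adipocyte sum, 6202.3 against 16751.2 to 184940 on the other 13 arrays. Its fibroblast and progenitor sum was the lowest, 194981 against 204382 to 299727. Its endothelial sum was the highest, 48999.3 against 25046.1 to 39135.3. No marker gene had a signal of 0.

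Ephx2, the soluble epoxide hydrolase that turns epoxy fatty acids into diols, was the member that rose. Its signal had a lowest, median and highest value of 19594.6, 23944.7 and 26739.5 on exercised arrays, against 9354.1, 12948.1 and 17209 on sedentary arrays. All 7 exercised arrays lay above all 7 sedentary arrays, and sedentary array 4 was the highest of its group. Mean signals were 23635 ± 2774 in exercised and 12892 ± 3027 in sedentary tissue (SD, n = 7 each). The difference on the scale of log2(signal + 46.7) was 0.90 (SE 0.13, 95% interval 0.61 to 1.18), a 1.86-fold change, with an adjusted p of 0.00239 by limma over 12945 genes. Ranked by p, Ephx2 stood at place 35 of those genes, and by size at place 74 of the genes that rose. In bulk tissue a change in the number of cells of a type and a change in RNA per cell cannot be told apart.

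**Figure D1:**
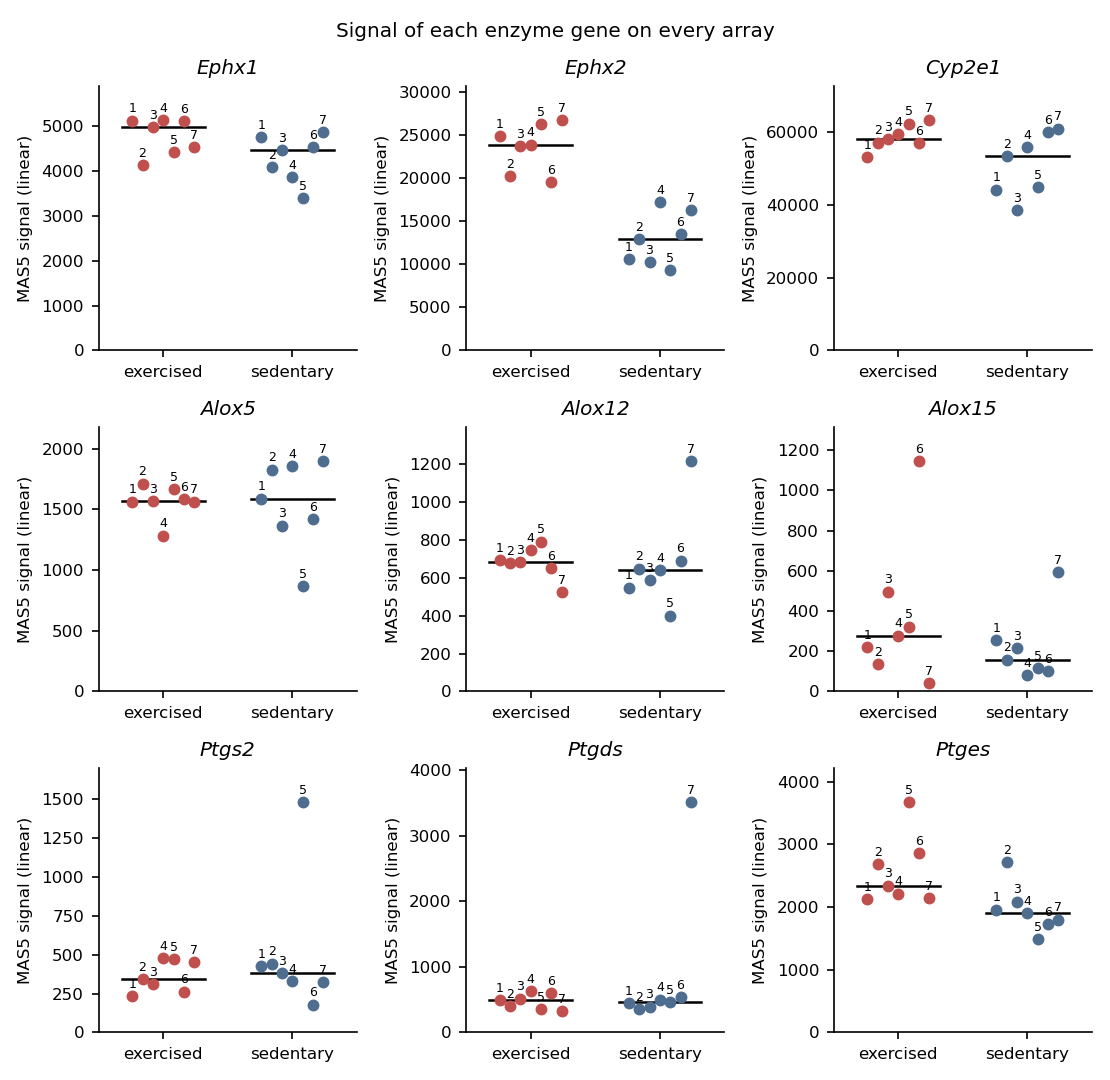
MAS5 signal of the 9 enzyme genes on each array, with exercised arrays on the left of each panel and sedentary arrays on the right; points are arrays, numbered within their group, and the line is the group median. Ephx2 is the gene whose groups do not overlap, while Ptgs2 and Ptgds each have 1 sedentary array far above the rest.

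Without sedentary arrays 5 and 7 the Ephx2 difference was 0.89 (limma, adjusted p = 0.00259). With the muscle markers as a covariate it was 1.04 (limma, adjusted p = 0.00635), with the macrophage markers 0.84 (limma, adjusted p = 0.00792) and with the mature adipocyte markers 0.85 (limma, adjusted p = 0.000505). Exercised arrays 7 and 5, which were low in lymphocyte markers, had the highest Ephx2 signals, 26739.5 and 26279.6, and sedentary array 5, the highest in those markers, had the lowest, 9354.1. With the lymphocyte markers as a covariate the Ephx2 difference was 0.83 (limma, adjusted p = 0.00236), and without the 3 arrays low in them it was 0.89 (limma, adjusted p = 0.0172); both settings were chosen after seeing the data. Exercised arrays 1 and 4 had muscle sums of 8262 and 6323, within the low end of the range, and Ephx2 signals of 24904 and 23944.7. Sedentary array 3 had the highest muscle sum of its group, 266237, and an Ephx2 signal of 10279.6. Over the brown and beige adipocyte genes, 7 of 10 rose. The 10 genes summed to 55268.8 to 184940 on exercised and 6202.3 to 54956.4 on sedentary arrays. The value of 6202.3 was on sedentary array 7, and the next lowest sum was 16751.2. Ucp1, the uncoupling protein of thermogenic fat, averaged 34906 ± 13885 in exercised and 2380 ± 3406 in sedentary tissue (SD, n = 7 each). The part of brown and beige fat cells, and of muscle, in the Ephx2 result was not tested.

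**Figure D2:**
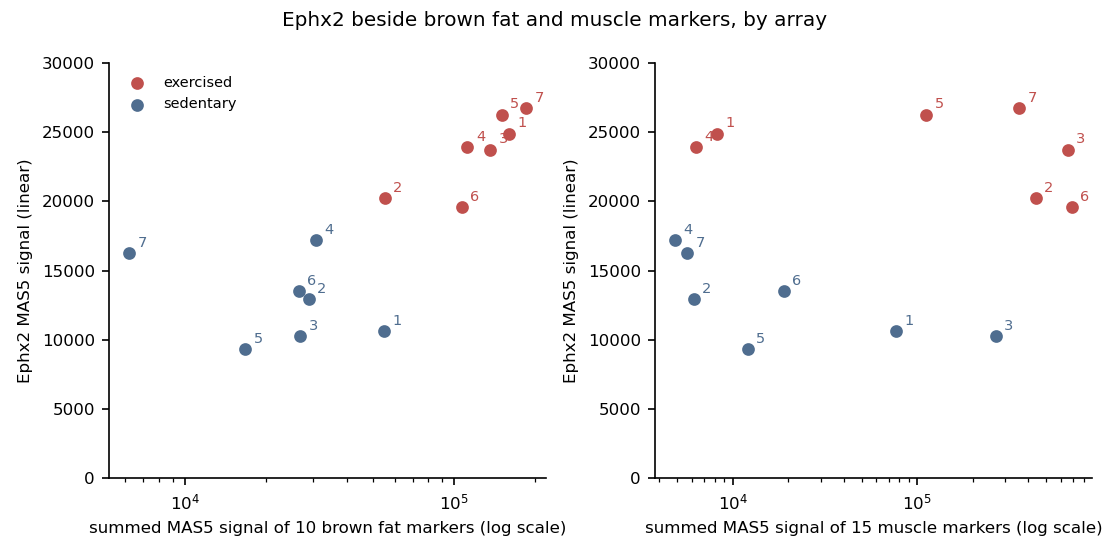
Ephx2 signal of each array (linear axis) against the summed signal of 10 brown and beige fat markers, left, and of 15 muscle markers, right (logarithmic axes), with array numbers beside the points. All 7 exercised arrays lie above the highest sedentary array, which is at 17209. The part of either cell type in the Ephx2 signal was not tested.

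Ephx1, the microsomal epoxide hydrolase best known for opening epoxides of drugs and other foreign compounds, did not pass the test. Its signal had a lowest, median and highest value of 4130.1, 4968.3 and 5119.7 on exercised arrays, against 3386.5, 4456.4 and 4864.1 on sedentary arrays. The groups overlapped, although 4 of 7 exercised arrays lay above the highest sedentary array. In log2 terms the groups differed by 0.16 (SE 0.09, 95% interval -0.03 to 0.35, limma, adjusted p = 0.298). The 2 hydrolases were also set against each other within each array, a comparison chosen after their values were seen. It is built from the same Ephx2 and Ephx1 signals, so its p is not separate support for the Ephx2 result. The log2 signal of Ephx2 minus that of Ephx1 was 2.29 ± 0.22 in exercised and 1.56 ± 0.34 in sedentary tissue (SD, n = 7 each). The groups differed by 0.74 (two-sided exact permutation test over 3432 assignments, p = 0.00117, smallest possible p = 0.000583), with 6 of 7 exercised arrays above every sedentary array. This is a difference between groups in an offset between probe sets, and it says nothing of which enzyme is the more abundant.

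Cyp2e1, a cytochrome P450 that oxidises ethanol, acetone and fatty acids, had high signals on every array. Signals had a lowest, median and highest value of 53128.5, 57977.9 and 63197.8 on exercised arrays, against 38620, 53332.2 and 60963.8 on sedentary arrays. Sedentary arrays 1, 3 and 5 were low, while the other sedentary arrays fell within the exercised range. On the log2 scale the difference was 0.21 (SE 0.10, 95% interval 0.00 to 0.42), with an unadjusted p of 0.0454 and an adjusted p of 0.216 by limma, so it did not pass the test. The SD was 3444 in exercised and 8629 in sedentary tissue, and this gap in spread was not tested. Whether signals this high lie near saturation was not tested.

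The lipoxygenases gave no call. Alox5, which starts leukotriene synthesis in myeloid cells, had a lowest, median and highest signal of 1282.9, 1568.9 and 1711 on exercised arrays, against 865.3, 1586.4 and 1893.1 on sedentary arrays. Exercised arrays lay within the sedentary range, which ran down to the single low value on sedentary array 5. The log2 difference was 0.05 (SE 0.15, 95% interval -0.26 to 0.36, limma, adjusted p = 0.861). Without sedentary array 5 it was -0.075, so its sign depends on that array. Sedentary array 5 also had the highest neutrophil sum, 72555.4 against 3551.3 to 16525.5. Its macrophage sum was the highest too, 183746 against 104002 to 172472. Alox5 had no second probe set, and which cells gave its signal was not tested.

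Alox12, the platelet-type lipoxygenase, had a lowest, median and highest signal of 525.8, 682.4 and 791.1 on exercised arrays, against 400.9, 640.2 and 1215.6 on sedentary arrays. The sedentary group held both extremes, the low one on array 5 and the high one on array 7, and all exercised arrays lay between these. Here the log2 difference was 0.07 (SE 0.18, 95% interval -0.31 to 0.44, limma, adjusted p = 0.853). Without sedentary array 5 it was -0.038, and without sedentary array 7 it was 0.21 (limma, adjusted p = 0.309). The second Alox12 probe set, with a mean signal of 159.6, was under the minimum.

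Alox15, the leukocyte-type lipoxygenase of mice, was under the minimum and had no test among the 12945 genes. Exercised arrays gave a lowest, median and highest signal of 41.9, 278 and 1143.3, against 81.6, 157.7 and 592 on sedentary arrays. The highest exercised value was on array 6, which also had the highest muscle sum, and the highest sedentary value was on array 7. Within each group the arrays spread more than the group means differed. In a fit without the minimum the log2 difference was 0.48 (SE 0.49, limma, adjusted p = 0.647). The untested difference was 0.73 without sedentary array 7 and 0.17 without exercised array 6. The 4 eosinophil markers with a probe set, a cell type known to hold this enzyme, were all under the minimum too.

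Ptgs2, the inducible cyclooxygenase, was high on 1 array. Its lowest, median and highest signals were 232.5, 342.8 and 478.7 on exercised arrays, against 178, 382.1 and 1480.3 on sedentary arrays. The value of 1480.3 came from sedentary array 5, and the other 6 sedentary arrays ran from 178 to 441.6, across most of the exercised range. With all arrays the log2 difference was -0.22 (SE 0.32, 95% interval -0.91 to 0.47, limma, adjusted p = 0.718). Without sedentary array 5 it was 0.064 (limma, adjusted p = 0.894). Ptgs2 passed the minimum only through that array: its mean signal was 436.4 over all arrays and 356.1 without it. The same array had the highest inflammatory and neutrophil sums, with an Il6 signal of 10196.4 against 128.9 to 198.3 on the other 13 arrays. Il6 was picked for naming after its values were seen. The second Ptgs2 probe set, under the minimum, gave 411.9 as its highest sedentary value and a log2 difference of 0.038.

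Ptgds, the lipocalin-type prostaglandin D synthase, was also high on 1 sedentary array. Its lowest, median and highest signals were 320.3, 496.1 and 624.6 on exercised arrays, against 356.4, 463.7 and 3504.8 on sedentary arrays. Sedentary array 7 gave the value of 3504.8, and the other 6 sedentary arrays ran from 356.4 to 541.3, inside the exercised range. Over all arrays the log2 difference was -0.36 (SE 0.39, 95% interval -1.20 to 0.47, limma, adjusted p = 0.615). Without sedentary array 7 it was 0.045 (limma, adjusted p = 0.888). Array 7 had the highest signals of the mesothelial markers Upk3b (8739.1 against 24.9 to 372.7) and Wt1 (1901.9 against 13.1 to 150.7). Wt1 was picked for naming after its values were seen. The second Ptgds probe set reached 1256.2 as its highest sedentary value and gave a log2 difference of -0.26. The part of those cells in the Ptgs2 and Ptgds values was not tested.

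**Figure D3:**
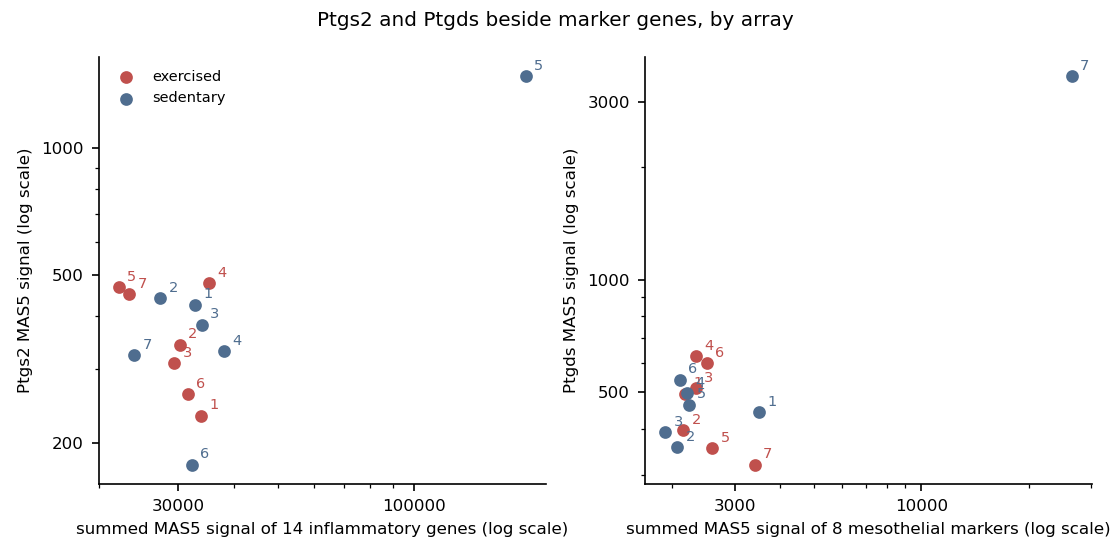
Left, Ptgs2 signal against the summed signal of the 14 genes of the inflammatory list; right, Ptgds signal against the summed signal of 8 mesothelial markers; all axes are logarithmic and numbers name arrays within a group. Sedentary array 5 stands alone at 1480.3 for Ptgs2 and sedentary array 7 at 3504.8 for Ptgds.

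Ptges, the inducible microsomal prostaglandin E synthase, had 7 of 7 exercised arrays above the sedentary median but did not pass the test. Its lowest, median and highest signals were 2126, 2343.2 and 3669.5 on exercised arrays, against 1490, 1903 and 2714 on sedentary arrays. Of the exercised arrays 2 lay above the highest sedentary array, so the groups overlapped. The log2 difference was 0.39 (SE 0.14, 95% interval 0.09 to 0.68), with an unadjusted p of 0.0135 and an adjusted p of 0.119 by limma. The gene's other probe sets gave log2 differences of 0.19 (limma, adjusted p = 0.583) and -0.068 (limma, adjusted p = 0.796) when every probe set was tested, and the mean of the 3 gave 0.17 (limma, adjusted p = 0.421).

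Across the 8 members tested, 1 rose and 0 fell at an adjusted p under 0.05. Of all 12945 genes 518 rose and 198 fell, 5.53% in either direction, 4% higher and 1.53% lower. With each array centred on its median instead, the split was 547 higher and 86 lower. The groups did not overlap, with exercised arrays higher, for 1 of 8 members and for 1.95% of all genes. An unadjusted p under 0.05 was reached by 3 of 8 members (Ephx2, Ptges and Cyp2e1) and by 21.8% of all genes. Differences were positive for 6 members and negative for 2, and the median was 0.11 against -0.03 over all genes. For the 7 members that were not called, the 95% intervals are the measure of what could be missed: the narrowest, that of Ephx1, reached 0.35, and the widest, that of Ptgds, ran from -1.20 to 0.47.

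**Figure D4:**
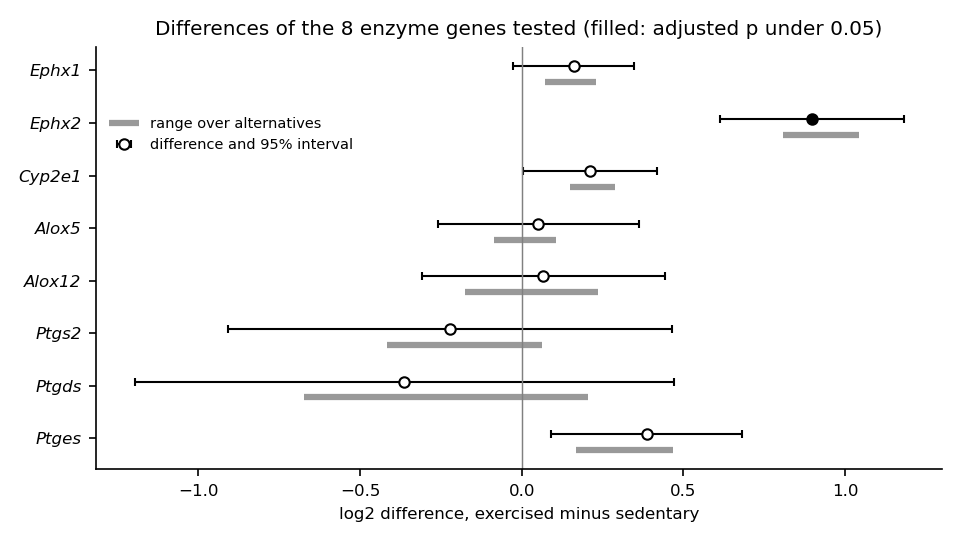
Log2 difference, exercised minus sedentary, of the 8 members tested, with its 95% interval; the grey bar is the range over the alternative settings and a filled point marks an adjusted p under 0.05. Ephx2 at 0.90 is the filled point, and the ranges of Alox5, Alox12, Ptgs2 and Ptgds cross 0.

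The other genes of the pathway were counted over 5 lists with 83 names, of which 74 had a probe set and 57 passed the minimum. Of these 57 genes 2 rose and 2 fell, 7.02% against 5.53% of all genes, and 25 differences were positive and 32 negative, with a median of -0.05. The genes that rose were both in the list of prostanoid synthesis and breakdown (13 tested). Among 14 genes of substrate release 0 rose and 1 fell, and among 11 genes of the leukotriene and lipoxygenase route 0 rose and 1 fell. The prostanoid receptor list (7 tested) includes the receptor-binding protein Ptgfrn, and the cytochrome P450 list (12 tested) includes the hydrolase Ephx3. In neither list was a gene called by limma.

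Ptgr2, a prostaglandin reductase that inactivates keto-prostaglandins, rose. Its lowest, median and highest signals were 6405.8, 7926.9 and 9379.1 on exercised arrays, against 2969.3, 5411.6 and 6158.3 on sedentary arrays. The groups did not overlap, as for 2.68% of all genes in either direction, and sedentary array 5 was the lowest. The log2 difference was 0.63 (SE 0.14, limma, adjusted p = 0.0186), and its 4 other probe sets gave 0.26 to 0.86, all positive.

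Ptges2, a membrane-associated prostaglandin E synthase, rose as well. Exercised arrays gave a lowest, median and highest signal of 2280.4, 2852.5 and 3368.2, against 1055.8, 1944.8 and 2168.2 on sedentary arrays. The groups did not overlap, and sedentary array 5 was again the lowest. Its log2 difference was 0.61 (SE 0.14, limma, adjusted p = 0.0246). Leaving out exercised array 1, 3, 5 or 7 put the adjusted p (limma) at 0.0536, 0.0519, 0.0559 or 0.0556, with a difference of 0.56 to 0.60. With the muscle markers as a covariate the difference was 0.64 for Ptgr2 (limma, adjusted p = 0.0852) and 0.56 for Ptges2 (limma, adjusted p = 0.133), and with the macrophage markers 0.46 (limma, adjusted p = 0.076) and 0.42 (limma, adjusted p = 0.0959). With the muscle covariate 0 of the 4 pathway genes called by limma kept an adjusted p under 0.05, Lta4h and Daglb included. The same held without the 3 arrays low in lymphocyte markers, where Ptgr2 gave 0.60 (limma, adjusted p = 0.0763) and Ptges2 0.53 (limma, adjusted p = 0.125).

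Lta4h, the hydrolase that makes leukotriene B from its epoxide precursor, fell. Its lowest, median and highest signals were 4149.6, 4722.5 and 5382.9 on exercised arrays, against 5186.8, 5660.8 and 6239.7 on sedentary arrays. A single exercised array lay above the lowest sedentary array. The log2 difference was -0.30 (SE 0.07, limma, adjusted p = 0.0239), but its other probe sets gave -0.04 and 0.06, and the mean of its probe sets gave -0.093 (limma, adjusted p = 0.582). Without exercised array 1 or 5 the difference was -0.28 (limma, adjusted p = 0.0542 and 0.0544).

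Daglb, a lipase that cuts fatty acids from diacylglycerol, fell too. Signals ran, as lowest, median and highest, through 982.7, 1061.8 and 1192.1 on exercised arrays, against 1105.8, 1379 and 1427.6 on sedentary arrays. The groups overlapped through sedentary array 5, the lowest of its group. Its log2 difference was -0.29 (SE 0.08, limma, adjusted p = 0.0404), and it was past the threshold in 13 of 33 alternative settings. Without sedentary array 5 it was -0.34 (limma, adjusted p = 0.0131), and without sedentary array 7 -0.28 (limma, adjusted p = 0.0557).

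In the lists with no call, the genes with the smallest p were the following. The prostaglandin D receptor Ptgdr gave a log2 difference of 0.40 (limma, adjusted p = 0.134), and Ptgfrn, which binds the prostaglandin F receptor, gave -0.18 (limma, adjusted p = 0.234). Cyp4f18, which hydroxylates leukotriene B in mouse neutrophils, gave -0.85 (limma, adjusted p = 0.156), and Cyp2j6, a mouse epoxygenase-family enzyme, gave 0.46 (limma, adjusted p = 0.17).

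**Figure D5:**
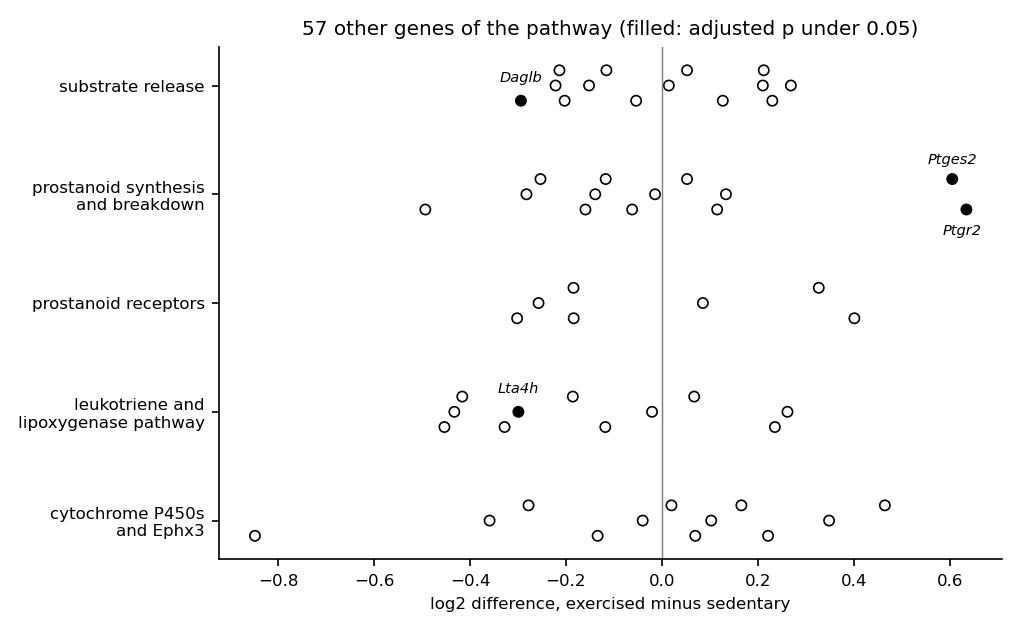
Log2 difference, exercised minus sedentary, of the 57 other pathway genes tested, by list; each point is a gene and filled points have an adjusted p under 0.05. Ptgr2 at 0.63 and Ptges2 at 0.61 lie to the right, and Lta4h at -0.30 and Daglb at -0.29 to the left.

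For 4 members, the genes whose array-to-array pattern was most alike were ranked by the Pearson correlation of deviations from the group means over 14 arrays, as a description with no p. For Ephx2 these were Slc38a6 (r = 0.91, Spearman 0.91), Hacl1 (r = 0.88, Spearman 0.86) and Glul (r = 0.87, Spearman 0.92), and without the 2 arrays farthest from the median r was 0.84, 0.80 and 0.89. Hacl1 and Glul also rose, with log2 differences of 0.81 and 0.33 (limma, adjusted p = 0.0214 and 0.0236), while Slc38a6 gave 0.13 (limma, adjusted p = 0.469). For Ephx1 they were Znrf3 (r = 0.89), Unc5b (r = 0.87) and Ece1 (r = 0.86), and 0.74, 0.87 and 0.73 without the 2 farthest arrays. For Ptgs2 they were Rnd1, H13 and Has1, at r of 0.89, 0.89 and 0.88, which dropped to 0.53, 0.62 and 0.57 without sedentary arrays 5 and 6. For Ptgds they were Cuzd1, Dynlrb2 and Mmrn1, at r of 0.96, 0.95 and 0.95, and 0.71, 0.69 and 0.75 without sedentary array 7 and exercised array 4. All of these correlations share the arrays, their scaling and any difference in cell mixture.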

How the data were processed

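Total RNA of frozen tissue was made into biotinylated cRNA and hybridised to Affymetrix arrays, as the labels' protocols say. Each deposited value is an intensity on a linear scale, for which the authors used MAS5 according to the submitters' processing notes (version and settings: not given in the sources used here). The table held 45101 probe sets on 14 arrays, with signals of 0.1 to 112160. After trimming 2% from both ends, each array had a mean of 1500, so the values were taken as scaled and not normalised again. A difference in total RNA per cell cannot be seen after such scaling. The number of arrays limits the precision.

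The platform annotation gave 1 symbol for 34945 probe sets, several for 932 and none for 9160, leaving out 64 controls; 34741 symbols were updated through Entrez identifiers. No probe set of this table carried the symbol Ptgs1. Samples were grouped by their titles. A gene was read from its probe set with the highest mean, genes with a mean under the 40th percentile (389.7) were left out, and log2(signal + 46.7), the 10th percentile as pseudocount, was tested with limma 3.58.1 (lmFit and eBayes with trend) in R 4.3.3. P-values are two-sided and adjusted by Benjamini-Hochberg over 12945 genes, with a threshold of 0.05. The procedure was also run on simulated data with independent noise for each gene. Those data hold no array-wide differences in cell mixture, so they do not show how the procedure handles such differences. The alternatives varied the pseudocount (1, 16, 200), the minimum, the scaling, the choice of probe set, the variance model, marker covariates, the arrays left out and a replicate block. All members are named; of the pathway lists, every gene past the threshold and, in lists without one, the 2 with the smallest p; and the 3 genes most alike in pattern to Ephx1, Ephx2, Ptgs2 and Ptgds. The members and all lists were chosen with earlier results of these data known. Sequences are from RefSeq.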

Additional observations from a re-analysis of the deposited data

Results flagged for a closer look

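Within each group of 7 arrays, the highest and the lowest value were checked for standing far from the rest by Dixon's ratio of the log2 signals; the values printed are the signals themselves. For independent groups chance flags about 1 in 20. Here 34 groups were checked and 7 values stood apart, but the groups were read on the same arrays and are not independent. Alox5 was 1282.9 on exercised array 4, the lowest of its group, against 1562 to 1711 on the other 6. Sedentary array 5 held 5 of the 7 values. There Ptgs2 was the highest of its group at 1480.3, against 178 to 441.6 on the other 6. Alox5 was the lowest there at 865.3, against 1365.5 to 1893.1, and Ptgr2 was the lowest at 2969.3, against 4907.8 to 6158.3. Ptges2 was the lowest at 1055.8, against 1665.9 to 2168.2, and Daglb was the lowest at 1105.8, against 1294.5 to 1427.6. This is also the array with the highest inflammatory, neutrophil and lymphocyte sums and the lowest mature adipocyte sum, 272726 against 338120 to 462949. Ptgds on sedentary array 7 was the highest of its group at 3504.8, against 356.4 to 541.3. On the linear signals instead, 8 values stood apart: Alox12 and Alox15 on sedentary array 7 (1215.6 against 400.9 to 691.2, and 592 against 81.6 to 256) and Alox15 on exercised array 6 (1143.3 against 41.9 to 495.3) were added, and Alox5 and Ptges2 on sedentary array 5 were not among them. Without sedentary array 5 the log2 difference was 0.51 for Ptgr2 and 0.48 for Ptges2.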

How the results depend on the processing

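In all 33 alternatives Ephx2 kept its call (0.81 to 1.04), and Ephx1, Cyp2e1 and Ptges stayed positive and short of it in all of theirs (0.07 to 0.23, 0.15 to 0.29 and 0.17 to 0.47); Alox15, untested, gave 0.17 to 0.79 when an array was left out. Alox5 turned to -0.013 with array weights, -0.035 without sedentary arrays 5 and 7, -0.085 with the macrophage, -0.014 with the mature adipocyte and -0.011 with the lymphocyte covariate, and ran from -0.075 to 0.11 when 1 array was left out. Alox12 turned to -0.18, -0.0094 and -0.032 with those covariates and ran from -0.038 to 0.21. Ptgs2 turned to 0.054 without both sedentary arrays and 0.0099 with the macrophage covariate and ran from -0.40 to 0.064. Ptgds turned to 0.056 without both and 0.21 without exercised arrays 5 and 7 and sedentary array 7, and ran from -0.48 to 0.045. None of these 4 genes passed the threshold in any alternative, and the causes were not tested. The count of genes past the threshold, 716, was 216 with the muscle, 464 with the macrophage and 1294 with the adipocyte covariate, and 402 to 853 when 1 array was left out; array weights gave 1026, and leaving out exercised arrays 5 and 7 and sedentary array 7, low in lymphocyte markers, 217. The macrophage covariate gave 258 higher and 206 lower. The pathway count, 4, was 2 with median centring, 7 with array weights, 0 with the muscle, 2 with the macrophage and 7 with the adipocyte covariate, 1 without the 3 arrays low in lymphocyte markers, and 1 to 6 when 1 array was left out (1 without exercised array 1, 2 without exercised array 5). The lymphocyte settings were chosen after seeing the data. Of 263 alternatives of the 8 named pathway genes, 0 reversed. The 41 that ended a call were all of the 4 called genes, since the others had no call to lose. Of 33 alternatives each, Ptgr2 lost its call in 4, Lta4h in 9, Ptges2 in 8 and Daglb in 20. With the replicate number as a block, 161 genes and 0 pathway genes were called and Ephx2 kept an adjusted p of 0.0324 (limma). The labels do not say whether the numbers pair the arrays. Same-numbered deviations correlated from -0.43 to 0.38, and 3 of 7 exercised arrays correlated best with their own number. These values do not settle whether the arrays are paired. The minimum at the 60th percentile gave no value for Alox12, Ptgs2 and Ptgds, and no alternative could be run for Ptgs1. Low signals limit the precision for Alox15 and Ptgs2, and the spread from single sedentary arrays that for Ptgs2 and Ptgds.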

Other observations

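These genes of the same pathway were picked after their values were seen, and none passed the threshold without a covariate. Alox5ap, the protein that presents arachidonic acid to Alox5, averaged 4402 ± 784 in exercised and 6191 ± 1936 in sedentary tissue (SD, n = 7 each), a log2 difference of -0.45 (limma, adjusted p = 0.122). Cysltr1, a receptor of cysteinyl leukotrienes, gave -0.43 (limma, adjusted p = 0.0703), with 5 of 7 exercised arrays below the lowest sedentary array. Hpgd, the dehydrogenase that starts prostaglandin breakdown, averaged 4812 ± 353 in exercised and 7216 ± 2648 in sedentary tissue, a log2 difference of -0.49 (limma, adjusted p = 0.166). Beside these, 14 of 14 macrophage markers had negative differences, as did 7123 of all 12945 genes. Of those markers 1 fell, against 1.53% of all genes. The summed macrophage signal ran from 104002 to 140962 on exercised and from 113978 to 183746 on sedentary arrays. The part of macrophages in the differences of Alox5ap, Cysltr1 and Hpgd was not tested. With the macrophage markers as a covariate the log2 difference was -0.20 for Alox5ap (limma, adjusted p = 0.449), -0.44 for Cysltr1 (limma, adjusted p = 0.135) and -0.80 for Hpgd (limma, adjusted p = 0.0109).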
